A study of Setaria viridis with 40 samples.

Results

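Leaves of *S. viridis* ME034 held for 4 h in high light (HL_4h) were compared directly with leaves held for 4 h at high temperature (HT_4h). The comparison takes the 8 libraries that the labels give these conditions, replicates A to D of each, out of 40 libraries in the series. The difference is taken between these groups and not against control leaves, although the model behind its errors was fitted over 39 libraries, controls included, and TPM of the control leaves at 4 h (ctrl_4h) are given beside some genes as a description. *S. viridis* (green foxtail) is a C4 grass used as a laboratory model for maize, sorghum and other C4 crops. Plants grew at 31 °C under 250 µmol photons m-2 s-1, and the treatments began 13 days after sowing. HL_4h leaves received 900 µmol photons m-2 s-1 at 31 °C. HT_4h leaves stayed at 250 µmol photons m-2 s-1 in a chamber at 40 °C, so the groups differ in both light and temperature and stood in separate chambers. Each replicate joined 2-cm mid-leaf segments of the fourth leaf, fully expanded, of 2 plants, and messenger RNA was read from its 3′ end. In these whole leaf pieces, fewer cells of a type and less RNA per cell cannot be told apart.

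In a C4 leaf, mesophyll cells first fix CO2 into C4 acids, and bundle sheath cells release it again for Rubisco and the Calvin-Benson cycle. Light in excess of what carbon fixation can use damages photosystem II (PSII), whose D1 protein is then degraded and replaced, while PsbS and the xanthophyll cycle let the antenna shed energy as heat. Heat unfolds proteins and makes membranes leaky, and plants answer with transcription factors of the heat shock type (HSFs) and the chaperones they switch on, the HSPs, that hold or refold other proteins.

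Total counts were 3324140 to 4020570 in HL_4h libraries and 3002030 to 4683440 in HT_4h libraries. Replicates of HL_4h correlated at r = 0.918 to 0.953 on the log2 scale, those of HT_4h at 0.945 to 0.954, and libraries of different groups at 0.823 to 0.862, across genes, which are not independent replicates. HL_4h replicate B stood apart from the other HL_4h libraries. It had the highest TMM normalization factor (1.46, against 1.13 to 1.24 in the other HL_4h and 0.989 to 1.11 in the HT_4h libraries), and among 8543 genes over 10 TPM it lay far above the other HL_4h libraries in 320 genes, against 24 to 45 genes for each of those. Many results that rest on it are given with and without it, though not every count of a list is. The index AK10751 marked 3 of the 4 libraries of each group.

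Here TPM is the estimated count scaled to the same total in every library, with no gene length in it, and libraries are given in the order A to D. The log2 fold change (log2FC) is HL_4h over HT_4h, with its SE, after TMM scaling, and adjusted p values are Benjamini-Hochberg values from the quasi-likelihood test of edgeR, over 14293 genes. Under TMM scaling the median log2FC of all tested genes was 0.00, and with library totals alone it was 0.23, so ratios of the TPM printed here lie above the log2FC by about that much. Genes of a list beyond those a fixed rule names (the ends of each list, the genes furthest apart and a set of known light and heat genes) were chosen after their values were seen.

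After 4 h, 2799 genes were higher and 2303 lower in HL_4h than in HT_4h leaves at an adjusted p under 0.05. That is 35.7% of the tested genes, 19.6% higher and 16.1% lower, and each list of genes below is set beside these shares. Abundant genes were called more often. Of 1231 genes outside the lists at 100 TPM or more, 55.9% were called without overlap, against 26.5% of all tested genes. The lists were not compared with genes of like abundance, so a share above these for abundant genes need not be particular to a list. Among genes called, 54.9% were higher in HL_4h with TMM scaling and 73.4% with library totals. Of these differences, 1771 higher and 1225 lower genes reached 2-fold (12.4 and 8.57% of the tested genes), 415 higher and 227 lower reached 5-fold (2.9 and 1.59%), and 2106 were smaller than 2-fold. The TPM of the 4 HL_4h libraries did not overlap those of the 4 HT_4h libraries in 33.8% of the tested genes, wholly above in 24.8% and wholly below in 9.01%. Genes of 44 pathway lists from the study's supplementary tables were followed, and of their 612 tested genes 149 were higher (24.3%) and 148 lower (24.2%).

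**Figure D1:**
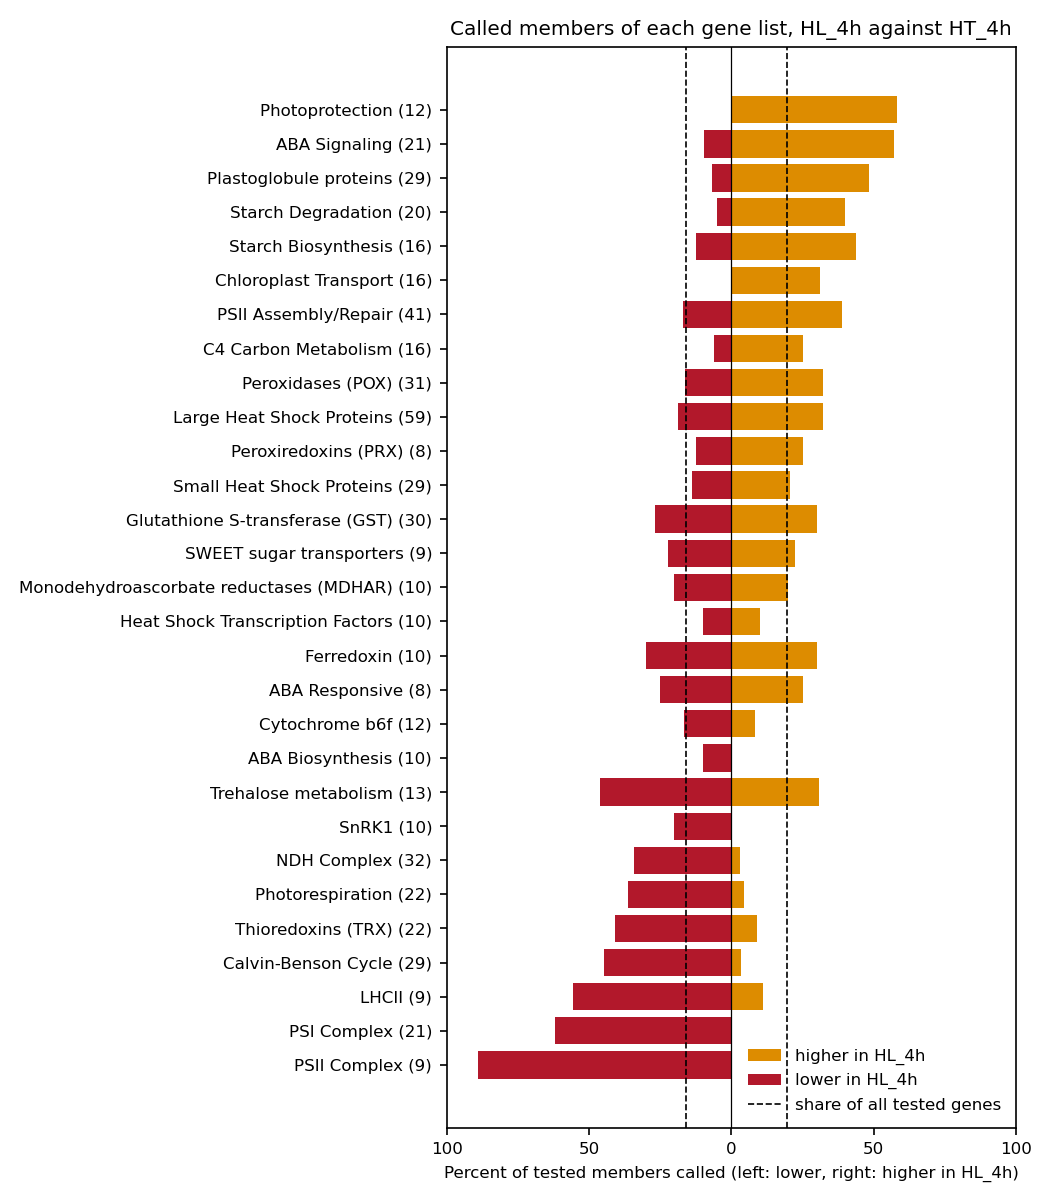
Share of tested members called higher (right) or lower (left) in HL_4h than in HT_4h leaves, in percent, for each list with 8 or more tested members (number tested in brackets), with dashed lines at the shares of all tested genes (19.6% higher, 16.1% lower). Photoprotection, plastoglobule, ABA signaling and starch lists extend to the right, and the PSII, PSI and LHCII subunit lists extend to the left.

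The highest log2FC of all tested genes was that of *ELIP_B*, a photoprotection gene. Of 12 tested members of this list, 7 were higher in HL_4h and none lower, with a median log2FC of 1.14 (1.08 without HL_4h replicate B). Early light-induced proteins (ELIPs) are relatives of the light-harvesting proteins that appear in thylakoids under light stress. *ELIP_B* (Sevir.2G057800) had 1594, 2070.3, 1958 and 1839 TPM in HL_4h leaves, against 0.21, 0, 1.2 and 1.3 TPM in HT_4h leaves (log2FC 11.22 ± 0.55, adjusted p = 1.2e-18). The transcript was abundant in every HL_4h library and at or near 0 in every HT_4h library. *ELIP_A* (Sevir.2G057900) had 781, 1087, 925 and 666 TPM in HL_4h leaves, against 3.4, 3.0, 6.0 and 2.7 TPM in HT_4h leaves (log2FC 7.60 ± 0.34), and *ELIP_D* (Sevir.2G057601) had 739.9, 1086, 942 and 996 TPM in HL_4h leaves, against 7.0, 5.4, 4.2 and 4.7 TPM in HT_4h leaves (log2FC 7.19 ± 0.27). A further *ELIP_A* copy (Sevir.2G057500) had 53.6, 63.6, 46.01 and 49.6 TPM in HL_4h leaves and at most 3 counts in any HT_4h library, which makes it at least 61.8-fold higher with the HT_4h libraries set at 3 counts each. All 4 copies were thus far higher in HL_4h with no overlap, although counting could split reads between such similar copies, so their separate levels are uncertain.

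*PsbS* (Sevir.5G400800), the protein that senses a low pH in the thylakoid lumen and switches on heat dissipation in the antenna, had 11759, 9973, 12016 and 8875 TPM in HL_4h leaves, against 2639, 2644, 2550.3 and 2534 TPM in HT_4h leaves (log2FC 1.83 ± 0.21, adjusted p = 5.5e-09). Every HL_4h library lay above every HT_4h library, and ctrl_4h leaves, which all carry the other index, had 1962 to 2706 TPM. Of the stress-enhanced proteins, which are smaller relatives of the ELIPs, *SEP1* (Sevir.8G209900) had 2555, 2223, 1536 and 2179.5 TPM in HL_4h leaves, against 488, 589, 547 and 709 TPM in HT_4h leaves (log2FC 1.65 ± 0.17). *SEP2* was higher as well (log2FC 0.63 ± 0.19, call lost without HL_4h replicate B at 0.50), and *SEP3*, *SEP4* and *SEP5* did not pass the test. The xanthophyll cycle enzymes did not pass it either. *VDE*, which makes zeaxanthin in strong light, had a log2FC of 0.34 ± 0.32 (adjusted p = 0.43), and *ZEP1*, which turns zeaxanthin back, had -0.06 ± 0.13 (adjusted p = 0.77).

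**Figure D2:**
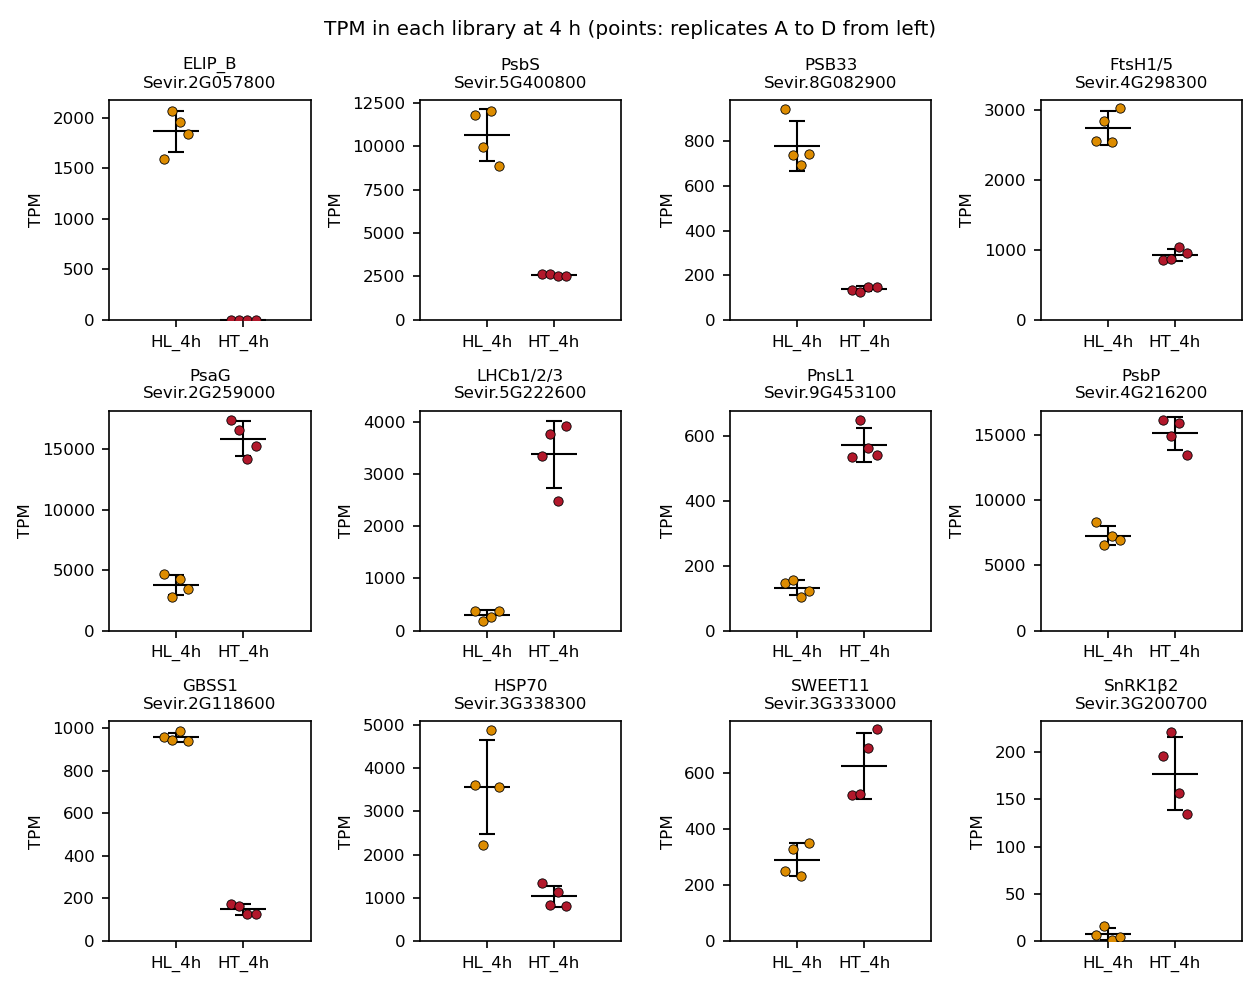
TPM of 12 genes in each of the 4 HL_4h (left) and 4 HT_4h (right) libraries, with the mean and SD as a bar, each panel on its own linear axis from 0. Points of the groups do not overlap in any panel, for example *PsbS* at 8875 to 12016 TPM in HL_4h and 2534 to 2644 TPM in HT_4h leaves, and *PsaG* at 2748 to 4647 TPM in HL_4h and 14206 to 17458 TPM in HT_4h leaves.

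Genes for the assembly and repair of PSII were mixed, with more higher than lower. Of 41 tested, 16 were higher in HL_4h and 7 lower (4 lower without HL_4h replicate B), with a median log2FC of 0.17. The thylakoid FtsH protease removes damaged D1 protein. Its subunit gene *FtsH1/5* (Sevir.4G298300) had 2549.6, 2844, 2541 and 3027 TPM in HL_4h leaves, against 851, 873, 1041 and 960.3 TPM in HT_4h leaves (log2FC 1.34 ± 0.12, adjusted p = 6.5e-11), and *FtsH2* (Sevir.4G280000) had 1759, 1995, 1633 and 2510.1 TPM in HL_4h leaves, against 517, 637, 757 and 794 TPM in HT_4h leaves (log2FC 1.33 ± 0.15). Both were higher in each HL_4h library than in any HT_4h library, whereas *FtsH8* was lower in HL_4h (-0.68 ± 0.12). *PSB33* (Sevir.8G082900), which in Arabidopsis helps to hold the PSII supercomplex together, had 942, 739, 692 and 741 TPM in HL_4h leaves, against 133, 127, 149 and 148 TPM in HT_4h leaves (log2FC 2.28 ± 0.19, adjusted p = 9.8e-12). It was the member with the largest positive log2FC in the list.

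Other genes of D1 synthesis and PSII assembly were also higher in HL_4h. They include *HCF136* (log2FC 0.86), *HCF244* (0.61), *OHP2* (0.92), the D1 processing peptidase *CTPA* (1.11), *Psb28* (1.19), *MPH1* (1.34) and the disulfide isomerase *PDI6* (1.82). *PDI6* (Sevir.8G068800) had 249, 209, 315 and 200.1 TPM in HL_4h leaves, against 52.7, 63.1, 62.2 and 63.96 TPM in HT_4h leaves, and ctrl_4h leaves lay between with 95.6 to 132 TPM. Among the 7 lower members, *CYP38* (Sevir.6G137100), a cyclophilin of the thylakoid lumen needed to assemble PSII, had 178, 128, 185 and 156 TPM in HL_4h leaves, against 429, 395, 366 and 406 TPM in HT_4h leaves (log2FC -1.50 ± 0.22, adjusted p = 1.2e-06). *TLP18.3*, a thylakoid protein of PSII repair, had 188, 217, 151 and 257 TPM in HL_4h leaves, against 384, 405, 415 and 441 TPM in HT_4h leaves (log2FC -1.24 ± 0.20). The Deg proteases *Deg1*, *Deg5* and *DEG8* had log2FC of -0.05, 0.15 and -0.05 and did not pass the test.

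Transcripts of the photosystems themselves were lower in HL_4h than in HT_4h leaves. This held for 13 of 21 tested PSI genes (median log2FC -1.17), for 8 of 9 PSII subunit genes (median -0.90) and for 5 of 9 light-harvesting complex II (LHCII) genes (median -0.59), with none higher except *LHCb7*. Without HL_4h replicate B these counts were the same, and with library totals 1 PSI gene was called higher. Of the genes in the PSI list, all 13 called lower were subunit or antenna genes, and the assembly factors *HCF101*, *YCF4*, *Psa2* and *Psa3* lay between -0.32 and 0.28 and did not pass. Nor did *PPD1* (-0.43), *PTAC4* (-0.27), *CEST/Y3IP1* (0.17) and the antenna gene *LHCa5* (0.21).

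*PsaG* (Sevir.2G259000), a subunit that binds the PSI antenna, had 4647, 2748, 4297 and 3396 TPM in HL_4h leaves, against 17458, 16584, 14206 and 15278 TPM in HT_4h leaves (log2FC -2.27 ± 0.25, adjusted p = 5.5e-09). *PsaO* (Sevir.7G100300) had 8616, 5657, 8874 and 6343 TPM in HL_4h leaves, against 30201, 24188, 22161 and 22374 TPM in HT_4h leaves (log2FC -1.95 ± 0.23). In both genes each HL_4h library was below each HT_4h library, and the ctrl_4h leaves, at 12493 to 19630.3 TPM for *PsaG* and 17993 to 27432 TPM for *PsaO*, lay in or near the HT_4h range. *PsaH*, the docking site of LHCII on PSI, had a log2FC of -1.84 ± 0.21, *PsaF*, which binds plastocyanin, -1.51 ± 0.25, and the antenna genes *LHCa2*, *LHCa3* and *LHCa4* had -1.12, -1.17 and -1.38. *PsaN* (Sevir.7G290300) had the largest negative log2FC of the list, with 16.2, 37.4, 7.7 and 47.2 TPM in HL_4h leaves, against 98.00, 318, 187 and 317 TPM in HT_4h leaves (log2FC -3.34 ± 0.70, adjusted p = 0.00024). The ctrl_4h leaves had 19.2 to 99.8 TPM of it, so its HT_4h values lay mostly above those of control leaves.

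In PSII, the genes of the oxygen-evolving complex were the lowest of the list. *PsbP* (Sevir.4G216200) had 8289, 6544, 7269.6 and 6932 TPM in HL_4h leaves, against 16138, 14861, 15919 and 13432 TPM in HT_4h leaves (log2FC -1.26 ± 0.18, adjusted p = 8.4e-07), *PsbQ* (Sevir.2G353200) had 2606, 1959.5, 1965 and 2281 TPM in HL_4h leaves, against 5185, 5752, 5153 and 5381 TPM in HT_4h leaves (log2FC -1.49 ± 0.19), and *PsbO* (Sevir.5G172700) had 4456, 3267, 4792 and 3481 TPM in HL_4h leaves, against 8669, 7305, 6719 and 6954 TPM in HT_4h leaves (log2FC -1.09 ± 0.19). The groups did not overlap in any of the 3 genes. *PsbR*, *PsbX*, *PsbY* and *PsbW_B* were lower by smaller amounts (-0.96, -0.87, -0.71 and -0.76), and *PsbW_A* did not pass. The LHCII gene *LHCb1/2/3* (Sevir.5G222600) had 378, 186, 269 and 371 TPM in HL_4h leaves, against 3349, 3771, 2481 and 3918 TPM in HT_4h leaves (log2FC -3.68 ± 0.40, adjusted p = 2.9e-09). This copy was lower in every HL_4h library, and of the other copies Sevir.3G146000 had a log2FC of -1.07 ± 0.33, Sevir.9G175700 -0.73 ± 0.21, and 2 copies did not pass. Reads may be split between these similar copies, so their separate levels are uncertain. *LHCb7* (Sevir.2G171200), a rarely expressed relative, was the exception with 46.7, 47.1, 45.3 and 51.4 TPM in HL_4h leaves, against 18.1, 19.2, 25.04 and 27.6 TPM in HT_4h leaves (log2FC 0.88 ± 0.15).

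**Figure D3:**
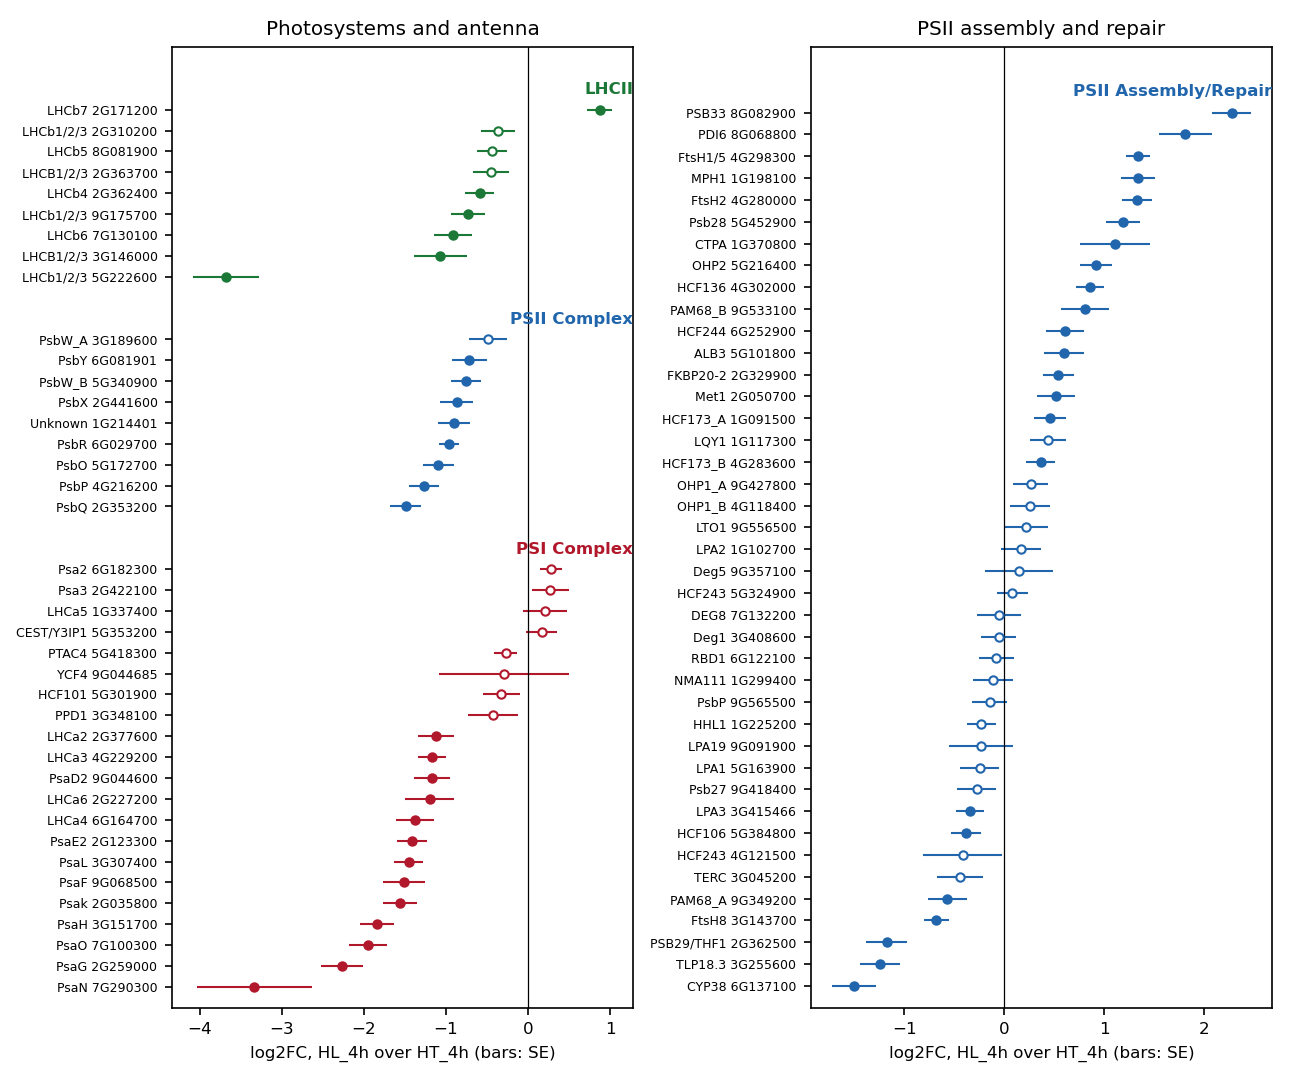
The log2FC of HL_4h over HT_4h leaves with its SE for each tested PSI, PSII and LHCII gene (left) and each PSII assembly or repair gene (right), filled where the adjusted p was under 0.05 and open where it was not. The PSI genes reach from *PsaN* at -3.34 to *Psa2* at 0.28, and the assembly and repair genes from *CYP38* at -1.50 to *PSB33* at 2.28.

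Genes that the lists label by cell type are given here beside these groups. Of 136 tested genes labelled bundle sheath 21 were higher and 49 lower in HL_4h (median log2FC -0.28), and of 169 labelled mesophyll 47 were higher and 35 lower (median 0.18). The summed TPM of 167 genes labelled bundle sheath was 62256 to 78377 in HL_4h and 114693 to 127926 in HT_4h leaves, and that of 195 genes labelled mesophyll was 117267 to 142310 in HL_4h and 149133 to 155846 in HT_4h leaves. Such sums weigh abundant genes most, and the part of the photosystem genes in them was not separated. The PSI list alone summed to 43124 to 64506 TPM in HL_4h and 124832 to 151446 TPM in HT_4h leaves. Of 6 bundle sheath marker genes none was higher and 2 lower (*PRK*, log2FC -1.26 ± 0.20, and *RBCS_A*), with summed TPM of 8132 to 11346 in HL_4h and 12106 to 13499 in HT_4h. Of 6 mesophyll markers 3 were higher and 1 lower, with summed TPM of 8567 to 9394 in HL_4h and 7651 to 10231 in HT_4h, which overlap. The calls of *PEPC_A* and *NADP-MDH*, among the higher ones, were lost without HL_4h replicate B and in 10 and 8 of 18 alternative analyses. Other *PEPC* and *NADP-MDH* genes of the C4 list did not pass. All 12 markers were present in all 8 libraries, the lowest being *PEPC_A* at 19.8 TPM. The part of cell type makeup in the results was not tested.

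Among the routes of cyclic electron flow, which adds to the proton gradient without making NADPH, the chloroplast NADH dehydrogenase-like (NDH) complex had 11 of 32 tested genes lower and 1 higher (median log2FC -0.35, and -0.11 with library totals). The lower genes were subunits and the assembly factors *CRR42* and *CRR7*. *PnsL1* (Sevir.9G453100), a lumenal subunit, had 148, 155, 105 and 123 TPM in HL_4h leaves, against 536, 651, 564 and 543 TPM in HT_4h leaves (log2FC -2.34 ± 0.26, adjusted p = 2.8e-09), and *PnsL2* (Sevir.1G212100) had 52.4, 33.6, 26.4 and 35.2 TPM in HL_4h leaves, against 133, 229, 189 and 210.2 TPM in HT_4h leaves (log2FC -2.57 ± 0.32). Each was lower in every HL_4h library. The gene called higher, *Cpn60-Alpha2* (log2FC 1.43 ± 0.28), encodes a chaperonin subunit. All 3 genes of the other route, *PGR5* and its partners, were lower in HL_4h. *PGRL1_A* (Sevir.2G115600) had 790.2, 879, 678 and 965 TPM in HL_4h leaves, against 1108, 1240.2, 1369 and 1473 TPM in HT_4h leaves (log2FC -0.87 ± 0.13), *PGRL1-B* had a log2FC of -0.53 ± 0.13, and *PGR5* had 442, 449.8, 388 and 401 TPM in HL_4h leaves, against 501, 499.9, 488 and 478 TPM in HT_4h leaves (log2FC -0.45 ± 0.13). The call of *PGR5* was lost with library totals, where its log2FC was -0.23.

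Other genes of the electron transport chain ran both ways. Of 12 cytochrome b6f genes, 1 was higher and 2 lower (1 lower without HL_4h replicate B), and the structural genes *PetC* and *PetM* did not pass (log2FC 0.26 ± 0.18 and -0.03 ± 0.24). Of 4 ATP synthase genes 2 were lower (*ATPH*, log2FC -0.56 ± 0.22, and *ATPG/PDE334*), and without HL_4h replicate B or with library totals neither was. Among 10 ferredoxin genes 3 were higher and 3 lower. *FD3* Sevir.3G230200, a higher one, lost its call without HL_4h replicate B (log2FC 0.55, adjusted p = 0.15). *FD2_B* (Sevir.7G098200), coding for a ferredoxin, had 11.7, 10.01, 13.7 and 12.3 TPM in HL_4h leaves, against 3.2, 3.6, 1.2 and 3.3 TPM in HT_4h leaves (log2FC 1.84 ± 0.39), while the ferredoxin-NADP reductase gene *FNR* was lower (-0.84 ± 0.14). The thylakoid kinases that phosphorylate LHCII and PSII differed in direction, *STN7* with a log2FC of -0.36 ± 0.13 (adjusted p = 0.024) and *STN8* with 0.63 ± 0.24 (adjusted p = 0.039). Both differences were under 2-fold, and the call was lost for *STN7* in 8 and for *STN8* in 9 of 18 alternative analyses. The phosphatase *TAP38*, which reverses STN7, had 0.04 ± 0.16 and did not pass.

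In carbon fixation, 13 of 29 Calvin-Benson cycle genes were lower in HL_4h and 1 higher, with a median log2FC of -0.25 (-0.05 with library totals). *PRK*, phosphoribulokinase (Sevir.1G289200), had 580.0, 473, 308 and 438 TPM in HL_4h leaves, against 709, 1029, 976 and 1002 TPM in HT_4h leaves (log2FC -1.26 ± 0.20, adjusted p = 4.6e-06). *RBCS_A* (Sevir.3G276200), a small subunit gene of Rubisco, had 4589.5, 3309, 4181 and 3285 TPM in HL_4h leaves, against 6835, 5516, 5754 and 6735 TPM in HT_4h leaves (log2FC -0.89 ± 0.18), and each HL_4h library was below each HT_4h library. Of its other copies in the list, *RBCS_B* was lower (-0.77), and *RBCS_C* and Sevir.3G315400 did not pass (0.07 and -0.01). Reads may be split between these similar copies. Rubisco activase frees the enzyme of inhibitory sugar phosphates. *RCA2* (Sevir.8G261433) had 528, 485, 432 and 452 TPM in HL_4h leaves, against 645, 676, 783 and 701 TPM in HT_4h leaves (log2FC -0.78 ± 0.16). *RCA1* (Sevir.8G261466) had 0, 0.54, 0 and 0.3 TPM in HL_4h leaves, against 0.43, 1.2, 2.1 and 1.7 TPM in HT_4h leaves, so it was near the floor of counting in HL_4h and at least 1.6-fold lower with HL_4h set at 3 counts a library. *CFBP1*, chloroplast fructose-1,6-bisphosphatase, had 0.3, 0, 0.25 and 2.4 TPM in HL_4h leaves, against 2.1, 0.9, 2.1 and 6.0 TPM in HT_4h leaves (log2FC -2.09 ± 0.69), with HL_4h values overlapping those of HT_4h, and the call was lost without HL_4h replicate B (-1.67, adjusted p = 0.056).

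Photorespiration genes went the same way, with 8 of 22 lower and 1 higher (median log2FC -0.39). *PLGG1* (Sevir.9G312000), which exchanges glycolate and glycerate across the chloroplast envelope, had 24.9, 33.3, 21.9 and 30.1 TPM in HL_4h leaves, against 52.5, 62.8, 75.4 and 88.6 TPM in HT_4h leaves (log2FC -1.56 ± 0.26, adjusted p = 1e-05). Glycolate oxidase *GOX1_A* (Sevir.9G063600) had 331, 309, 302 and 268 TPM in HL_4h leaves, against 478, 405, 417 and 415 TPM in HT_4h leaves (log2FC -0.72 ± 0.15), and its copy *GOX1_B* had a log2FC of -2.40 ± 0.62. The groups did not overlap in *PLGG1* and *GOX1_A*. The gene called higher was a serine hydroxymethyltransferase, *GLYA/SHMT* (0.88 ± 0.19). Hydroxypyruvate reductase *HPR1* and phosphoglycolate phosphatase *PGLP1* did not pass (adjusted p = 0.21 and 0.052).

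Of 16 tested genes of the C4 cycle, 4 were higher and 1 lower, and without HL_4h replicate B 2 were higher and 1 lower. The list has several genes for phosphoenolpyruvate (PEP) carboxylase, the enzyme type that first fixes CO2 in the cycle. *PEPC_A* (Sevir.5G145500) had 43.1, 55.5, 54.7 and 53.8 TPM in HL_4h leaves, against 27.5, 19.8, 35.9 and 34.3 TPM in HT_4h leaves (log2FC 0.60 ± 0.23, adjusted p = 0.037). This call was lost in 10 of 18 alternative analyses, as was that of *NADP-MDH* (0.63 ± 0.23) in 8. The other tested PEP carboxylase genes of the list did not pass. Their log2FC were 0.30 (*PEPC_B*), -0.28 (*PEPC_C*), -0.42 (Sevir.4G143500) and 0.46 (Sevir.5G328100). *PPDK* (Sevir.3G253900), which regenerates the CO2 acceptor, had 7554, 8147, 6738 and 8856 TPM in HL_4h leaves, against 6824, 8336, 8536 and 8875 TPM in HT_4h leaves (log2FC -0.27 ± 0.14, adjusted p = 0.11), and the decarboxylase *NADP-ME* had a log2FC of -0.37 ± 0.19 (adjusted p = 0.13). The groups overlapped in both. Chloroplast transport had 5 of 16 genes higher and none lower, among them the phosphoenolpyruvate translocator *PPT* (0.63 ± 0.17) and the protein import receptor *TOC33* (0.93 ± 0.22).

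More starch genes were higher than lower in HL_4h on both the making and the breaking side. In starch biosynthesis 7 of 16 were higher and 2 lower (median log2FC 0.36), and in starch degradation 8 of 20 were higher and 1 lower (median 0.64). *GBSS1* (Sevir.2G118600), the granule-bound synthase of amylose, had 956, 942, 988 and 941 TPM in HL_4h leaves, against 174, 164, 127 and 128 TPM in HT_4h leaves (log2FC 2.47 ± 0.17, adjusted p = 2e-14). *APL2* (Sevir.3G134900), a large subunit of ADP-glucose pyrophosphorylase, had 157, 264, 490.5 and 149.5 TPM in HL_4h leaves, against 51.7, 40.6, 46.5 and 52.3 TPM in HT_4h leaves (log2FC 2.27 ± 0.28). Replicate C was highest in HL_4h, and all 4 HL_4h libraries were above the HT_4h range in both genes. The starch synthase *SS1* (Sevir.4G063400) had 473, 451, 474 and 477 TPM in HL_4h leaves, against 199, 195, 216 and 218 TPM in HT_4h leaves, and the branching enzyme *SBE2.2_A* had a log2FC of 1.24 ± 0.15, whereas its copy *SBE2.2_B* was lower (-0.70 ± 0.20).

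On the degradation side, the starch phosphorylase *PHS2* (Sevir.5G389400) had 133, 319.9, 108 and 355 TPM in HL_4h leaves, against 25.2, 59.2, 42.8 and 57.3 TPM in HT_4h leaves (log2FC 2.06 ± 0.38). Its HL_4h replicates fell into a higher and a lower pair, all above the HT_4h libraries. *PHS1*, the glucanotransferase *DPE2_A* and the glucan dikinase *SEX1* had log2FC of 1.48, 1.23 and 1.56. The copy *DPE2_B* was higher by 0.70, and its call was lost without HL_4h replicate B (0.56, adjusted p = 0.053). The beta-amylase *BAM1* (Sevir.9G549100) had 44.9, 555, 115 and 66.8 TPM in HL_4h leaves, against 31.6, 73.04, 46.8 and 45.97 TPM in HT_4h leaves (log2FC 1.64 ± 0.45), where replicate B was far above the rest of HL_4h, and replicates A and D lay within the HT_4h range. Without replicate B its log2FC was 0.44 ± 0.37 (adjusted p = 0.38).

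Plastoglobules are lipid particles on thylakoids that store quinones and carotenoid precursors. Of 29 tested plastoglobule genes 14 were higher and 2 lower, with a median log2FC of 0.59. The calls of *SAG* and *FBN8*, both higher, were lost without HL_4h replicate B (0.62 and 0.65). Sevir.2G219000, which the list calls *AOC2* but which is annotated as S-adenosylmethionine decarboxylase, an enzyme of polyamine synthesis, had 12.9, 10.3, 9.7 and 11.1 TPM in HL_4h leaves, against 0, 0.9, 0.3 and 1.7 TPM in HT_4h leaves (log2FC 3.80 ± 0.52, adjusted p = 2.8e-07). *PBN4* (Sevir.8G183100) had 839.6, 712, 935 and 788 TPM in HL_4h leaves, against 179, 173, 172 and 178 TPM in HT_4h leaves (log2FC 2.02 ± 0.18), and the beta-carotene hydroxylase *CrtR-B* had 110.2, 157, 91.03 and 118 TPM in HL_4h leaves, against 44.2, 34.3, 36.2 and 27.98 TPM in HT_4h leaves (log2FC 1.48 ± 0.22). The groups did not overlap in these genes. The carotenoid genes *ZDS* and *LYC-B* were higher by less (0.91 and 0.98).

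Genes of sugar signalling held some of the largest negative values. SnRK1 is a kinase that is active when sugar and energy are low, and 2 of its 10 tested genes were lower, none higher. *SnRK1β2* (Sevir.3G200700), a regulatory subunit, had 6.3, 16.2, 1.5 and 4.8 TPM in HL_4h leaves, against 196, 222, 157 and 135 TPM in HT_4h leaves (log2FC -4.90 ± 0.34, adjusted p = 5.3e-14). *SnRK1γ4* (Sevir.7G076700), another subunit, had 0.6, 0.54, 0.75 and 0 TPM in HL_4h leaves, against 9.8, 10.2, 9.7 and 9.7 TPM in HT_4h leaves, at least 11.7-fold lower with HL_4h set at 3 counts a library. The ctrl_4h leaves lay between the groups in both genes, at 59.6 to 123 and 3.7 to 5.5 TPM. The other 8 SnRK1 genes did not pass, and the list median was -0.21 (0.04 with library totals).

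Trehalose-6-phosphate reports on sucrose supply. Of 13 trehalose genes 4 were higher and 6 lower (2 and 6 without HL_4h replicate B). *TPSII.5.3* (Sevir.1G354200), of the class II synthase-like proteins, had 0.9, 22.5, 2.0 and 2.4 TPM in HL_4h leaves, against 57.01, 91.1, 62.5 and 68.3 TPM in HT_4h leaves (log2FC -3.62 ± 0.44), with HL_4h replicate B far above the other HL_4h libraries and below all HT_4h libraries. *TPSII.3.1*, *TPSII.4.2* and *TPSII.2.1* were lower too (-2.07, -2.09 and -1.58), and the class I gene *TPSI.1* and the phosphatase genes *TPPA.1* and *TPPA.3* were higher (1.13, 1.12 and 1.50), the call of *TPPA.1* being lost without HL_4h replicate B (0.58, adjusted p = 0.27). Of the target of rapamycin (TOR) genes, which drive growth when sugar is ample, 3 of 5 were lower (*TOR*, *RAPTOR2* and *LST8-2*, log2FC -0.70, -0.64 and -1.38), but none with library totals. None of 3 hexokinase genes passed.

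Sugar transporters split. Of 9 *SWEET* genes 2 were higher and 2 lower, and of 4 sucrose transporter genes 1 was lower (*SUC3*, -1.17 ± 0.39, lost in 6 of 18 alternative analyses). *SWEET11* (Sevir.3G333000), which exports sucrose towards the phloem, had 249, 329, 232 and 352 TPM in HL_4h leaves, against 522, 527, 689 and 758 TPM in HT_4h leaves (log2FC -1.33 ± 0.19, adjusted p = 5.1e-07). *SWEET16/17* (Sevir.9G414000), of the vacuolar type, had 47.01, 41.7, 27.4 and 29.8 TPM in HL_4h leaves, against 7.5, 14.7, 8.7 and 6.7 TPM in HT_4h leaves (log2FC 1.73 ± 0.31, adjusted p = 2.4e-05). These genes did not overlap between groups and moved in opposite directions. *SWEET4/5/6/7* (Sevir.5G225300) had 0.6, 34.1, 2.0 and 0 TPM in HL_4h leaves, against 0.64, 0.3, 1.2 and 0 TPM in HT_4h leaves, so that its call rested on replicate B of HL_4h, and without that library its log2FC was 0.51 (adjusted p = 0.69).

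In abscisic acid (ABA) signaling, 12 of 21 genes were higher in HL_4h and 2 lower (median log2FC 0.53), and without HL_4h replicate B 8 were higher and 2 lower. The PP2C phosphatases, which hold the pathway off until receptors bind them, included *PP2C12* (Sevir.3G141300) with 11.1, 14.1, 18.7 and 8.1 TPM in HL_4h leaves, against 0.21, 0.6, 1.8 and 1.3 TPM in HT_4h leaves (log2FC 3.55 ± 0.69, adjusted p = 8.9e-05). *PP2C1* and *PP2C10* were also higher (1.19 and 0.84). Of the receptors, *PYL4* (Sevir.9G441100) had 9.3, 10.01, 11.7 and 6.9 TPM in HL_4h leaves, against 3.0, 1.5, 1.2 and 1 TPM in HT_4h leaves (log2FC 2.17 ± 0.46) and *PYL8* (Sevir.1G013800) had 61.98, 76.3, 74.6 and 76.4 TPM in HL_4h leaves, against 128, 139, 126 and 137 TPM in HT_4h leaves (log2FC -1.09 ± 0.13). One receptor was thus higher and another lower in every HL_4h library. The kinase *SnRK2.8* was lower (-1.02 ± 0.14) and *SnRK2.6* did not pass. In ABA biosynthesis 1 of 10 genes was lower, called *NCED4* in the list, at 0, 1.4, 0 and 0 TPM in HL_4h leaves, against 0.64, 2.1, 4.2 and 4.3 TPM in HT_4h leaves, where the groups overlapped. *NCED1* and *NCED3/9* of that list did not pass (0.48 and -0.18). Of 8 ABA-responsive genes 2 were higher and 2 lower (1 and 3 without HL_4h replicate B), and of 5 transport or conversion genes 1 was higher (*BG1*, 1.09 ± 0.41, lost in 8 of 17 alternative analyses) and 1 lower (*BGLU10*). None of 3 ABA catabolism genes passed.

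Heat shock genes were not, as a group, lower in HL_4h than in HT_4h leaves at 4 h. Of 59 large HSP genes 19 were higher and 11 lower (median log2FC 0.32, and 21 and 12 without HL_4h replicate B). With library totals 28 were higher and 5 lower. By the names in the list, 15 of 28 tested genes with an *HSP70*, *HSC70* or *HSP90* name were higher and 2 lower (median log2FC 0.78), and 4 of 29 with a *DNAJ* (HSP40 co-chaperone) name were higher and 9 lower (median -0.05). *HSP70* (Sevir.3G338300) had 3610.5, 2227, 4882 and 3566 TPM in HL_4h leaves, against 1333, 839, 1142 and 813 TPM in HT_4h leaves (log2FC 1.60 ± 0.25, adjusted p = 4.2e-06), with ctrl_4h leaves at 1352 to 2504 TPM. *HSC70-5* (Sevir.2G266700) had 69.8, 64.4, 82.1 and 86.6 TPM in HL_4h leaves, against 13.02, 6.3, 9.1 and 13.3 TPM in HT_4h leaves (log2FC 2.64 ± 0.25), and the chloroplast type *HSP90.5* (Sevir.6G197700) had 138, 108, 95.01 and 198 TPM in HL_4h leaves, against 32.5, 30.96, 64.3 and 37.97 TPM in HT_4h leaves (log2FC 1.50 ± 0.27). In these 3 genes every HL_4h library lay above every HT_4h library. The 3 *HSP90.4* copies on one stretch of identifiers (Sevir.6G207050, Sevir.6G207150 and Sevir.6G207201) were higher by 1.75, 0.91 and 1.15 on the log2 scale, and reads may be split between them. *DNAJ/HSP40* (Sevir.3G067600) had 192, 136, 113 and 175 TPM in HL_4h leaves, against 496, 701, 603 and 614 TPM in HT_4h leaves (log2FC -2.18 ± 0.27).

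Of 29 small HSP genes 6 were higher and 4 lower, and their median log2FC of 0.18 was -0.30 without HL_4h replicate B and -0.02 with genes near 0 counts set at their bounds. *HSP17.6C* (Sevir.9G461800) had 99.1, 153, 151 and 96.3 TPM in HL_4h leaves, against 232, 226, 262 and 229 TPM in HT_4h leaves (log2FC -1.15 ± 0.26, adjusted p = 0.0007) and was lower in each HL_4h library. The chaperonin partners *HSP10* Sevir.2G421000 and Sevir.9G396600 had 28.4 to 54.5 and 20.3 to 47.5 TPM in HL_4h leaves, against 6.0 to 12.99 and 4.0 to 6.3 TPM in HT_4h leaves, and were higher. *HSP17.6B* was called higher on counts in HL_4h replicates B and C alone (0, 2.7, 6.5 and 0 TPM in HL_4h and 0 in all HT_4h leaves), and the call was lost in 6 of 15 alternative analyses. *HSP15.7* had 0.3, 0.54, 0 and 0 TPM in HL_4h leaves, against 2.1, 3.0, 3.3 and 2.3 TPM in HT_4h leaves, at least 3.2-fold lower with HL_4h set at 3 counts a library. Of 10 HSF genes *HSFCA2* was higher (2.84 ± 0.73) and *HSFA2A*, an HSF that prolongs the heat response, lower, at 9.0, 11.6, 8.2 and 6.3 TPM in HL_4h leaves, against 12.6, 14.1, 13.6 and 13.3 TPM in HT_4h leaves (log2FC -0.84 ± 0.22, adjusted p = 0.0023). *HSFA6B* did not pass.

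The difference between the treatments had changed since 2 h for 364 genes (2.55% of those tested), upward for 222 (1.55%) and downward for 142 (0.993%), by an interaction test in the same model. Upward means that HL minus HT was more positive at 4 h. Of 29 small HSP genes 9 changed upward and none downward. Their median log2FC of HL over HT was -4.17 at 1 h, -1.74 at 2 h and 0.18 at 4 h (-0.30 without HL_4h replicate B). *HSP90.1* (Sevir.7G029400) averaged 0.29 TPM in HL and 549 TPM in HT leaves at 1 h, and 0.19 TPM in HL and 11.01 TPM in HT leaves at 2 h. At 4 h it had 0, 21.1, 0.5 and 0.3 TPM in HL_4h leaves, against 0.85, 2.1, 0.6 and 1.7 TPM in HT_4h leaves, and its change between 2 h and 4 h was 7.58 ± 1.24 (adjusted p = 0.00098). Its mean in HT leaves was thus lower at each later time, while in HL_4h leaves replicate B held nearly all of its counts. Without that library its log2FC at 4 h was -2.21 (adjusted p = 0.042), the reverse of 1.77 ± 0.76 with it (adjusted p = 0.068). *HSP21* (Sevir.6G132300), the chloroplast small HSP, had log2FC of -13.33 at 1 h, -10.23 at 2 h and -1.56 at 4 h (change 8.67 ± 1.45, adjusted p = 0.0015), and *HSP70* (Sevir.5G381300) had -8.04, -4.75 and 0.78 (change 5.53 ± 0.84, adjusted p = 0.00045). Neither passed the test at 4 h itself, but both 4 h values depended on HL_4h replicate B. Without that library *HSP21* was called lower, with a log2FC of -4.66 (adjusted p = 0.0001), and *HSP70* Sevir.5G381300 had -0.25 (adjusted p = 0.77). The chloroplast *HSP90.5* Sevir.2G252000 went through 0, with -3.45, -1.30 and 0.65 (change 1.95 ± 0.34).

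The difference also changed for genes of photosynthesis and starch. Of 32 NDH genes 5 changed downward and 2 upward, and of 21 PSI genes 1 downward and none upward. *LHCb1/2/3* (Sevir.5G222600) had log2FC of 0.24 at 1 h, -0.91 at 2 h and -3.68 at 4 h (change -2.78 ± 0.52, adjusted p = 0.0031). Its mean in HT leaves was 1298 TPM at 1 h and 1219 TPM at 2 h. *CYP38* had -0.20, -0.16 and -1.50 (change -1.34 ± 0.31), and *PnsL2* -0.23, -0.80 and -2.57 (change -1.77 ± 0.43). Of the genes without a called change after 2 h, *PsbS* (0.95, 0.89 and 1.83) and *FtsH1/5* (1.68, 1.65 and 1.34) had a positive log2FC at all 3 times. Among starch genes *APL2* changed upward (0.33, 0.52 and 2.27, change 1.75 ± 0.38) and *PHS2* downward (2.78, 4.59 and 2.06, change -2.53 ± 0.57). The 1 h log2FC rest on 3 HL libraries and are given as a description. The mean TPM of *HSP90.1* in HL leaves at 1 h also includes the HL library whose counts were not used. The number of changed genes depended on single libraries, with 99 upward and 72 downward without HL_4h replicate B.

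**Figure D4:**
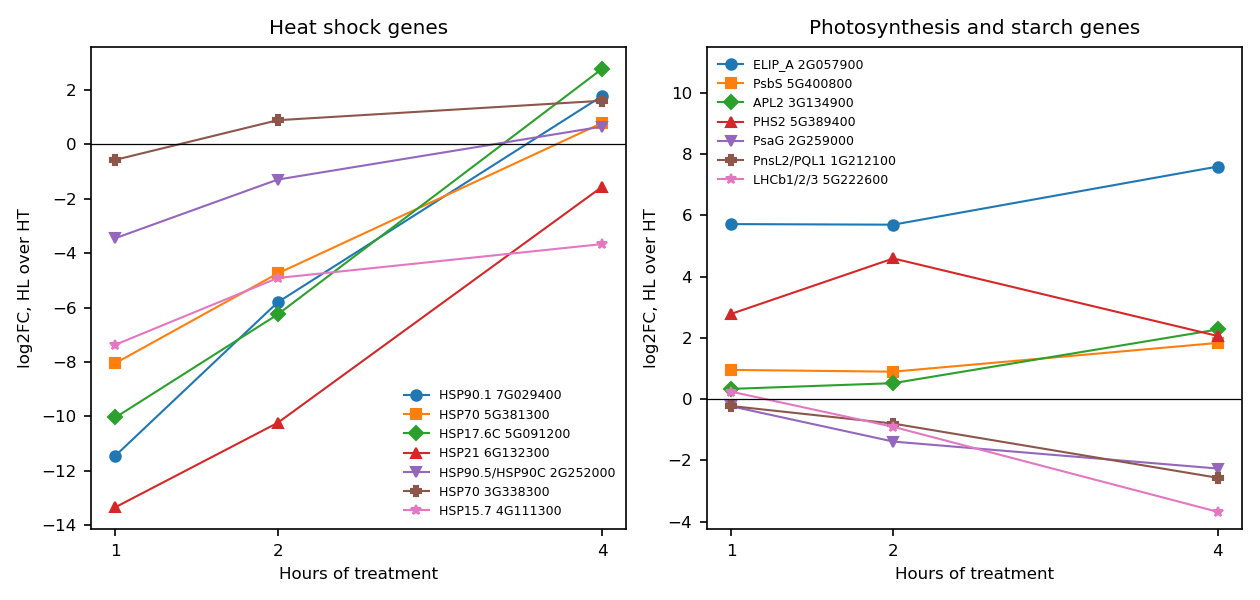
Fitted log2FC of HL over HT leaves after 1, 2 and 4 h of treatment, for heat shock genes (left) and for photosynthesis and starch genes (right), without error bars. Heat shock genes such as *HSP21* come from -13.33 at 1 h to -1.56 at 4 h, where values of genes with counts near 0 depend on the model's prior count. The 4 h points of *HSP90.1*, *HSP17.6C* Sevir.5G091200, *HSP21* and *HSP70* Sevir.5G381300 rest on HL_4h replicate B (-2.21, 0.34, -4.66 and -0.25 without it). The line of *LHCb1/2/3* ends at -3.68.

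Among redox genes, more thioredoxins were lower than higher and glutathione S-transferases (GSTs) ran both ways. Of 22 thioredoxin list genes 2 were higher and 9 lower (median log2FC -0.53). The *ROXY3* glutaredoxins of that list were furthest apart, with 1.2, 2.2, 1.7 and 1.2 TPM in HL_4h leaves, against 47.8, 60.1, 53.4 and 46.3 TPM in HT_4h leaves for Sevir.5G167100 (log2FC -5.22 ± 0.32, adjusted p = 1.8e-15) and 38.3, 41.7, 31.3 and 32.2 TPM in HL_4h leaves, against 156, 152, 183 and 175 TPM in HT_4h leaves for Sevir.5G167300 (log2FC -2.44 ± 0.21). Both were lower in every HL_4h library. Of 30 GST genes 9 were higher and 8 lower. The call of Sevir.9G119600, a higher one, was lost without HL_4h replicate B (log2FC 0.62, adjusted p = 0.066). *GSTU18* (Sevir.9G350800) had 707, 659, 841 and 379.9 TPM in HL_4h leaves, against 147, 123, 99.9 and 105 TPM in HT_4h leaves (log2FC 2.23 ± 0.29), while *GSTU18* copies Sevir.9G352300 and Sevir.9G350500 were lower (-1.96 and -1.62), and reads may be split among them. Sevir.4G253700 of this list was at or near 0 in HT_4h leaves and had 3.0, 53.3, 7.5 and 4.8 TPM in HL_4h leaves, most of it in replicate B. With HT_4h set at 3 counts a library its HL_4h mean was at least 19.9-fold higher, a bound that rests on replicate B. Without that library the gene did not pass the count filter and was not tested.

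The peroxidase list had 10 of 31 genes higher and 5 lower, with the largest value in *ACP5* (Sevir.9G478900), annotated as a purple acid phosphatase and also in the ABA-responsive list, at 10.5, 16.8, 10.4 and 12.03 TPM in HL_4h leaves, against 0.43, 1.2, 0 and 0 TPM in HT_4h leaves (log2FC 4.53 ± 0.60). Without HL_4h replicate B the calls of Sevir.4G144900 and Sevir.4G259800 (higher) and of Sevir.4G195000 and Sevir.5G118600 (lower) were lost. Ascorbate peroxidases had 3 of 7 higher and 2 lower, with *APX2* (Sevir.2G456100) at 1916, 2255, 2178 and 2099 TPM in HL_4h leaves, against 1223, 844, 1542 and 1057 TPM in HT_4h leaves (log2FC 0.64 ± 0.17, adjusted p = 0.0027). *APX_S* Sevir.7G110100, a higher one, lost its call without HL_4h replicate B (1.01 with it, 0.44 without, adjusted p = 0.26). Of 10 genes in the monodehydroascorbate reductase list 2 were higher and 2 lower (*MDAR2* 1.59 ± 0.34 and *MDAR4* -1.65 ± 0.16 the furthest), and 1 higher and 2 lower without HL_4h replicate B. The other lower gene of this list carries another name, *CDSP32* (-0.55). Both dehydroascorbate reductases tested were lower, *DHAR3* by -1.06 ± 0.15, and both glutathione reductases were higher, 1 of them without HL_4h replicate B. Of 7 superoxide dismutases 1 was higher (*FSD*, the iron type, 1.09 ± 0.28) and 1 lower (*CSD2*, -0.59 ± 0.23, lost in 6 of 18 alternative analyses). Of 8 peroxiredoxin list genes 2 were higher, with *PRXIIE* at 696, 475, 514 and 564 TPM in HL_4h leaves, against 236, 299, 267 and 233 TPM in HT_4h leaves (log2FC 0.92 ± 0.24), and 1 lower, *HOT5*, annotated as a glutaredoxin (-3.09 ± 0.43). Of 3 glutathione peroxidases 2 were higher (1 without HL_4h replicate B). Neither of 2 catalase genes passed (*CAT2*, 0.46 ± 0.19, adjusted p = 0.062), nor did the 1 polyphenol oxidase.

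The largest differences of all outside these pathways were in genes that were close to off in one treatment. The gene Sevir.9G242900 (*CYP75B1*), annotated as flavonoid 3′-monooxygenase of the anthocyanin and flavonoid route, had 169, 241, 98.5 and 95.7 TPM in HL_4h leaves and 1 count in all HT_4h libraries together, which makes it at least 175-fold higher with HT_4h set at 3 counts a library. Sevir.9G551900, with no named function, had 225, 275, 154 and 403 TPM in HL_4h leaves, against 2.6, 3.6, 7.8 and 8.7 TPM in HT_4h leaves (log2FC 5.36 ± 0.61). Sevir.9G438900 and Sevir.5G264900, also among the 10 genes with the largest positive values, had a single HL_4h library far above the rest (2.7, 79.03, 7.2 and 0.6 TPM and 10.8, 15.97, 86.8 and 4.8 TPM).

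In the other direction, Sevir.1G373000 (*CDCP2*, *LEJ2*), a CBS domain protein that in Arabidopsis regulates thioredoxins, had 0, 1.4, 0 and 0.3 TPM in HL_4h leaves, against 149, 222, 182 and 246 TPM in HT_4h leaves (log2FC -9.00 ± 0.47, adjusted p = 1e-17). Sevir.5G112300, a dormancy and auxin associated protein, had 0.9, 2.7, 0.75 and 1.5 TPM in HL_4h leaves, against 306, 421, 218 and 248 TPM in HT_4h leaves (log2FC -7.88 ± 0.49, adjusted p = 1.8e-15). Both were nearly absent from every HL_4h library, and ctrl_4h leaves had 74.4 to 149 and 95.1 to 265 TPM, which is below the HT_4h libraries in the first gene and overlaps them in the second. Sevir.9G358000, a zinc finger and RNA recognition motif protein, had 0.9, 0.27, 0.5 and 0 TPM in HL_4h leaves, against 42.9, 38.8, 59.1 and 56.3 TPM in HT_4h leaves and was at least 58.7-fold lower. Sevir.6G200600, an oligopeptide transporter (*OPT5*), had 0, 0.81, 0 and 0.6 TPM in HL_4h leaves, against 18.8, 24.6, 20.8 and 27.3 TPM in HT_4h leaves and was at least 27.3-fold lower, and Sevir.4G238100, a kelch repeat protein, had a log2FC of -6.42 ± 0.54. The other 5 of the 10 genes with the largest negative values were at least 13.1 to 28.1-fold lower with HL_4h set at 3 counts a library.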

How the data were processed

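Leaf RNA of 40 libraries in 10 conditions was read with a 3′ end kit (QuantSeq). Per the labels and the study's methods, the authors trimmed reads with Trim Galore 0.6.2, quantified them with Salmon 1.1.0 against the *S. viridis* v2 gene set and summed them to genes with tximport, which gave the deposited estimated counts. The TPM the authors deposited equal the estimated count over the library total, so no gene length enters. Replicates are separate samples of 2 pooled plants each. The depth of the libraries, whose range the report gives for each group, limits precision, and bounds cover counting error only.

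The deposited counts were tested with edgeR 4.0.16 (R 4.3.3), quasi-likelihood, TMM scaling, 1 model over 39 libraries, with 14293 of 38239 genes tested (at least 10 counts in at least 4 libraries) and Benjamini-Hochberg adjustment. Of the count columns, 1 whose header and values gave different conditions was not used. A group with at most 3 counts in each library was set at 3 counts for a bound. Genes named by rule were the 10 highest and 10 lowest log2FC among called genes that did not overlap in TPM and reached a mean of 10 TPM, the called ends of each list with at least 3 tested members, and a fixed set of light and heat genes. The comparison, its lists and its genes were chosen with earlier results of these data known, and lists by keyword were not used. Alternatives were DESeq2 1.42.0, limma 3.58.1 on log2(TPM + 1), other scaling and filters, the index as a covariate or AK10751 alone, each replicate left out and a replicate block. The test was checked on simulated data for HL_4h against HT_4h (14081 genes), where it called 60 of 100 genes changed 2-fold, 98 of 100 changed 4-fold and 8 of 13881 unchanged genes. Those counts were drawn from the fitted model itself, with the groups equal except in the changed genes. Far fewer genes differed there than were called in the data, and no library was made to stand apart. The rates therefore need not hold for the real comparison.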

Additional observations from a re-analysis of the deposited data

Results flagged for a closer look

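Among the named genes, a single library lay far from the other 3 of its group in 18 of 218 gene and group pairs (8.26%), where chance gives about 1 in 20, by the gap to the nearest library over the range. HL_4h replicate B was the high library for Sevir.9G438900 (79.0 TPM), Sevir.4G253700 (53.3 TPM), *TPSII.5.3* (22.5 TPM), *NCED4* (1.35 TPM), *SWEET4/5/6/7* (34.1 TPM), Sevir.5G459700 (8.12 TPM) and *HSP90.1* (21.1 TPM). HL_4h replicate C was high for Sevir.5G264900 (86.8 TPM) and low for *STN8* (26.9 TPM). HL_4h replicate A was low for *PYL8* (62.0 TPM) and *PEPC_A* (43.1 TPM), and replicate D was low for *GPX6* (82.4 TPM).

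In HT_4h, replicate A was high for *GOX1_A* (478 TPM), and replicate C was low for *FD2_B* (1.21 TPM). For 4 genes the other 3 HT_4h libraries were at 0 and the remaining one held a single count, namely *CYP75B1* in replicate A (0.214 TPM), Sevir.9G438900 in replicate B (0.301 TPM), and Sevir.4G253700 and Sevir.5G398032 in replicate D (0.333 TPM each).

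For 12 named genes the HL minus HT difference changed between 2 h and 4 h (edgeR's quasi-likelihood interaction test, Benjamini-Hochberg). It changed upward for *CYP75B1* (6.28 ± 1.39 SE on the log2 scale, adjusted p = 0.013), Sevir.9G438900 (6.18 ± 1.76, 0.048), *SWEET4/5/6/7* (5.57 ± 1.34, 0.019), *HSP90.1* (7.58 ± 1.24, 0.00098), *SnRK1β2* (2.07 ± 0.55, 0.036), *ELIP_A* Sevir.2G057900 (1.90 ± 0.41, 0.011), *APL2* (1.75 ± 0.38, 0.012) and *LHCb7* (0.82 ± 0.21, 0.029). It changed downward for *LHCb1/2/3* Sevir.5G222600 (-2.78 ± 0.52, 0.0031), *PHS2* (-2.53 ± 0.57, 0.014), *PnsL2* (-1.77 ± 0.43, 0.020) and *CYP38* (-1.34 ± 0.31, 0.015). The first 4 of the upward changes belong to genes at or near 0 counts in some groups, whose fitted sizes depend on the model's prior count.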

How the results depend on the processing

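None of the 97 named genes called at 4 h changed sign in an alternative. Of the 12 not called 5 did, with adjusted p of at least 0.40 where the sign differed except for *HSP90.1*, which ranged from -2.21 without HL_4h replicate B to 2.13 without HL_4h replicate C, and 113 of 1898 values lost their call while 21 gained one. With library totals 1359 genes were lower, 801 of them at least 2-fold, with limma on TPM 1462 and 777, and with AK10751 libraries only 1409 were lower. Of the 5102 calls, 4158 were shared with library totals, 5057 with DESeq2, 4220 with limma, 3180 with AK10751 alone and 4592 without HL_4h replicate B. Of called genes 73.4% were higher with library totals and 71.6% with limma, against 54.9%. Leaving out 1 replicate gave 2284 to 2541 genes higher and 2067 to 2493 lower, and 1529 to 1687 and 1173 to 1490 at least 2-fold. The change between 2 h and 4 h was called for 92 to 280 genes upward and 47 to 173 downward. It fell to 99 and 72 without HL_4h replicate B, 92 and 47 without HT_4h replicate B, 133 and 86 without HT_4h replicate C, 107 and 63 without HT_4h replicate D, and 66 downward without HL_4h replicate C. DESeq2 called 368 upward and 223 downward, and library totals 85 downward. The cause was not tested. Of list counts, 1355 stayed within 1.5 times and 229 did not.

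Same-lettered replicates did not deviate together (r = 0.113, 0.123, -0.122 and 0.0219 for A to D). Different letters reached from -0.166 (HL_4h D with HT_4h A) to 0.233 (HL_4h D with HT_4h C). No pairing by letter was seen, although so few libraries cannot exclude it. With a replicate block on the 8 libraries 2610 genes were higher and 2175 lower, against 2622 and 2107 without the block. For the change, the block gave 176 upward and 173 downward against 183 and 158 without it in the same 16 libraries, an alternative chosen after seeing the data.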

Other observations

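Outside the lists, 688 genes with a mean of at least 100 TPM in the higher group were called and did not overlap, 491 higher and 197 lower in HL_4h. That is 55.9% of the 1231 tested genes outside the lists at that level, where 26.5% of all tested genes were called and did not overlap, and 71.4% of the 688 were higher, against 67.6% of all such genes. The genes named here were picked from them after their values were seen, and stand for no pathway as a whole. Chalcone synthase, the entry to flavonoids (Sevir.8G149900), had 628, 662, 517 and 344 TPM in HL_4h leaves, against 21.1, 35.2, 22.6 and 37.3 TPM in HT_4h leaves (log2FC 4.00 ± 0.47). Cinnamate 4-hydroxylase (Sevir.3G295500) had 367, 512, 446 and 251 TPM in HL_4h leaves, against 39.5, 30.96, 33.5 and 33.98 TPM in HT_4h leaves (log2FC 3.28 ± 0.32), and a DAHP synthase of the shikimate route (Sevir.2G406000) had a log2FC of 2.75 ± 0.22. All 4 HL_4h libraries lay above HT_4h in each. The plastid glucose-6-phosphate translocator *GPT2* (Sevir.2G346100) had a log2FC of 3.00 ± 0.54, the asparagine synthetase *ASN2* (Sevir.9G444800) 3.22 ± 0.29 and *PPCK1* (Sevir.1G244600), the kinase of PEP carboxylase, 3.04 ± 0.48.

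Of the lower genes, the tonoplast aquaporin *TIP2;1* (Sevir.4G127600) had 54.5, 76.1, 44.5 and 33.1 TPM in HL_4h leaves, against 1922, 2133, 1651 and 1326 TPM in HT_4h leaves (log2FC -5.33 ± 0.47), and the plasma membrane aquaporin *PIP2;2* (Sevir.1G246800) had a log2FC of -2.69 ± 0.23. The blue light receptor *PHOT1* (Sevir.8G020400) had 5.8, 9.3, 9.6 and 9.3 TPM in HL_4h leaves, against 122, 137, 134 and 134 TPM in HT_4h leaves (log2FC -4.17 ± 0.17). Both *TIP2;1* and *PHOT1* were lower in every HL_4h library by a wide margin. The co-chaperone *BAG6* (Sevir.1G012100) and the autophagy gene *ATG8C* (Sevir.6G034400) had log2FC of -2.31 ± 0.40 and -2.14 ± 0.21.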
